A study of Mus musculus with 8 samples.

Results

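The NADPH oxidase subunit genes described here are Cybb, Cyba, Ncf1, Ncf4, Rac1 and Rac2, and they were picked out of the table by gene symbol. The 6 symbols were all found among the 16486 genes measured by RNA-Seq in mouse blood monocytes (MCs). Flow sorting had split the MCs of each mouse group into Ly6Chigh (CD11b+Ly6G-Ly6Chigh) and Ly6Clow (CD11b+Ly6G-Ly6Clow) cells. Control mice (CT) were untreated C57/BL6. T1DM mice were C57/BL6 given streptozotocin (STZ), which kills insulin-producing beta cells, in 5 daily doses of 50 mg/kg that began at an age of 8 weeks. The T2DM model was the db/db mouse, which carries a mutated leptin receptor, and the sources used here name no background strain for it. All mice were male, ate normal chow and were 20 to 22 weeks old at sorting.

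Each group stands on RNA pooled from 5 mice, so the spread between libraries of a group need not contain the spread between animals. The libraries analysed here were 2 of CT Ly6Chigh, 2 of CT Ly6Clow and 1 of each subset from T1DM and from T2DM mice, 8 in total. The values are log2 expression as deposited, and no counts came with them, so the read depth of a single value is unknown. Levels are therefore compared for 1 gene across libraries; where 2 genes are subtracted, only the change of the difference across libraries is read. CT libraries came from a NextSeq 500 and diabetic libraries from a HiSeq 4000, so the instrument and diabetes cannot be told apart.

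The phagocyte NADPH oxidase moves electrons from NADPH across a membrane onto oxygen and makes superoxide, with which neutrophils and monocytes attack microbes. Its catalytic core is a membrane pair, the electron-carrying gp91phox encoded by Cybb and its partner p22phox encoded by Cyba. In resting cells the organizer p47phox (Ncf1) and the phosphoinositide-binding p40phox (Ncf4) wait in the cytosol, and the enzyme starts when they reach the membrane together with a GTP-loaded Rac GTPase. Rac2 is largely restricted to blood cells, whereas Rac1 is found in most tissues.

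In GRCm38, the mm10 build that the labels name, the GENCODE M21 annotation places the 6 protein-coding genes on 4 chromosomes. Cybb lies at chrX:9435252-9487771, Cyba at chr8:122424776-122432930 and Ncf1 at chr5:134220053-134229625, all on the minus strand. Rac1 lies on the same chromosome as Ncf1, at chr5:143503634-143528036 on the minus strand. Ncf4, at chr15:78244801-78262580 on the plus strand, and Rac2, at chr15:78559167-78572783 on the minus strand, are separated by 296586 bases. Of the distinct 31-base sequences in each gene's transcripts, 7.30% of those of Cyba, 4.03% of those of Rac2, 0.813% of those of Ncf1 and 0.579% of those of Rac1 also occur in transcripts of other genes. For Cybb and Ncf4 this share was 0, and the 6 genes shared none with each other.

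Promoter sequences were at hand for 3 of the 6 genes, Cybb, Cyba and Ncf1, which are the 3 that lead the subset comparison together with Rac1. They are shown because these genes moved together between the subsets. Each runs 5′ to 3′ along the gene from 250 bases before the RefSeq start site to 20 bases after it (GRCm38.p6, minus strand), at chrX:9469305-9469574 for Cybb, chr8:122432921-122433190 for Cyba and chr5:134229606-134229875 for Ncf1. The Cybb gene of GENCODE extends further upstream than this start. Capitals mark matches on either strand to GAGGAA, the core of the sites of the myeloid factor PU.1, or to GAAANNGAAA, the core of the interferon-stimulated response element.
Cybb: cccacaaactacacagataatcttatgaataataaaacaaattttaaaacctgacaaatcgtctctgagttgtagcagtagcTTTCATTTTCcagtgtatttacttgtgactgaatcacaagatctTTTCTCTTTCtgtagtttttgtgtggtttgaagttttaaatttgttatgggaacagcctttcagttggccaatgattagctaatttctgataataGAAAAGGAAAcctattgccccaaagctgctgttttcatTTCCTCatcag
Cyba: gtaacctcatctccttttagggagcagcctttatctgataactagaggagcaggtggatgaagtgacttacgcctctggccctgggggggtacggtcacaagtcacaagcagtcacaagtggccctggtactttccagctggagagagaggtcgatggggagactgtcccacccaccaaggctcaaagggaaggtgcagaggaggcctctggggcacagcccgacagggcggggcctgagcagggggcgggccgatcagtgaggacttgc
Ncf1: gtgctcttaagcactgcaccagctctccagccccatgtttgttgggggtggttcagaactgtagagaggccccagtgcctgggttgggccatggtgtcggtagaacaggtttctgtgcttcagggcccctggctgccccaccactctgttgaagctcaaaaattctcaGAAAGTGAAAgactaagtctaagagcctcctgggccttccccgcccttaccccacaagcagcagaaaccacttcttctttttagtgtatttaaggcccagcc

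GAAANNGAAA occurred 3 times in the Cybb window, beginning -168, -124 and -29 bases from the start site, the first pair on the opposite strand. It occurred once in the Ncf1 window, at -82, and was not found in that of Cyba. Of 32851 promoters of the same length, 3.21% held at least 1 match. GAGGAA was found in Cybb on the opposite strand, beginning at position 10 where the start site is position 1, and in 25.1% of all promoters. The CCAAT box was found in Cybb at -56 (35.4% of promoters). The GC box GGGCGG was found in Ncf1 at -42 on the opposite strand and in Cyba at -24 and -6 (34.1% of promoters). The TATA box TATAAA was in none of the 3 windows (12.9% of promoters). The 5 motifs were searched on both strands, their matches did not overlap, and they were chosen after the sequences had been looked at, so the matches are a description of these windows.

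The sorted cells were first compared with their labels. Of 6 classical MC markers 5 were called higher in Ly6Chigh MCs, among them Ly6c2 (log2 values of 8.56 to 8.72 against 2.69 to 4.07). Of 7 nonclassical markers 3 were called lower in Ly6Chigh MCs, such as Cd300e, whereas Nr4a1, a factor that nonclassical MCs depend on, did not pass the test (log2FC of -0.44). Cx3cr1, of the same list, lay the other way, with a log2FC of 0.83 in CT mice (limma adjusted p = 0.00541) and 0.60 over all mice (limma adjusted p = 0.0235). Of 4 markers of both kinds of MC, 4 had a limma adjusted p under 0.01 over all mice, all higher in Ly6Chigh MCs. In that direction 11.4% of all genes passed. Their log2FC were 0.72 for Csf1r, 1.03 for Itgam, 0.88 for Cd68 and 2.60 for Lyz2, with a median of 0.95. Markers of other cells moved with the gates: 10 of 10 B cell genes and 6 of 6 NK cell genes were called lower in Ly6Chigh MCs. The B cell genes summed to log2 levels of 8.03 to 9.04 in Ly6Chigh and 12.03 to 12.37 in Ly6Clow libraries, with Cd79a at 2.68 to 4.17 and 8.56 to 9.08. The NK cell genes summed to 4.45 to 6.54 and 7.02 to 9.48. The part of these cells in the subset differences below was not tested, and in sorted bulk samples a smaller fraction of expressing cells and less RNA per cell cannot be told apart.

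The first question was whether the oxidase subunits differ between the subsets. Cybb, Cyba, Ncf1 and Rac1 were higher in Ly6Chigh than in Ly6Clow MCs in each of CT, T1DM and T2DM mice, by 1.51-fold to 2.27-fold, and over all mice these 4 passed the limit on p (n = 4 against 4 libraries). Ncf4, the gene of p40phox, and Rac2, the haematopoietic Rac, did not pass it.

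**Figure D1:**
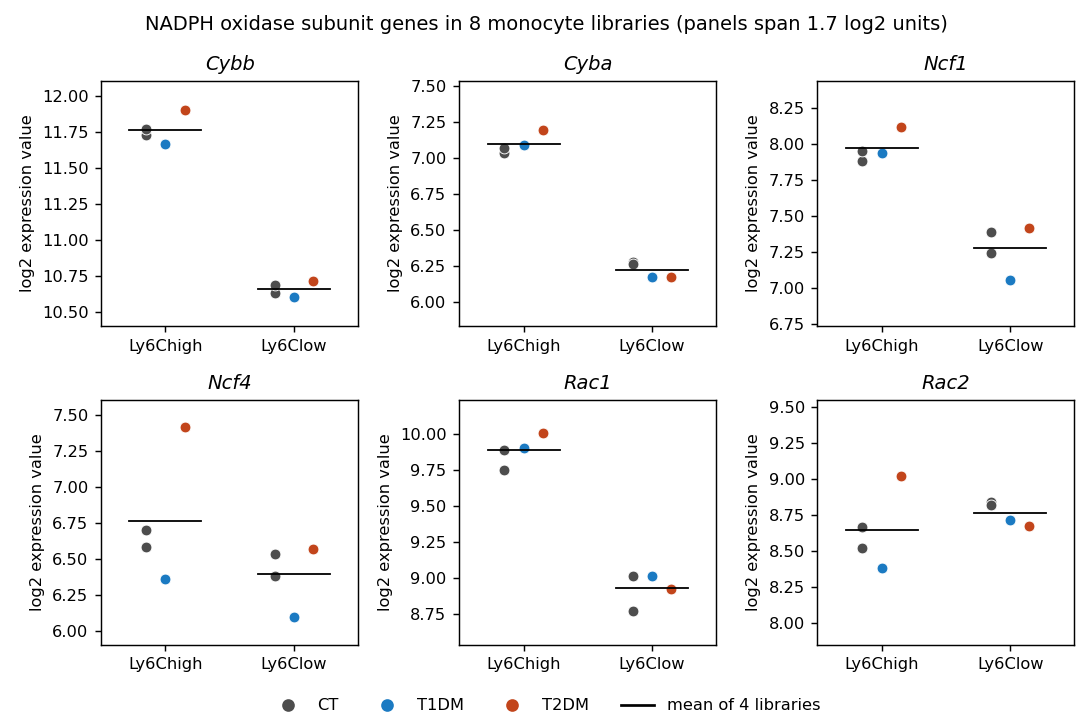
Log2 expression values of the 6 genes in 8 libraries, 1 panel per gene, with Ly6Chigh on the left and Ly6Clow on the right of each panel; points are single libraries coloured by mouse group, bars are the mean of 4 libraries, and every panel spans the same range. The subsets do not overlap for Cybb, Cyba, Ncf1 and Rac1, and overlap for Ncf4 and Rac2.

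Cybb, the catalytic subunit, measured 11.73 and 11.77 (log2 values) in the CT Ly6Chigh libraries, 11.67 in the T1DM and 11.90 in the T2DM one. The Ly6Clow libraries measured 10.64 and 10.69 (CT), 10.61 (T1DM) and 10.72 (T2DM). The lowest Ly6Chigh library lay 0.95 above the highest Ly6Clow library, and within a subset the order T2DM, CT, T1DM was the same. In CT mice the log2FC was 1.09 ± 0.030 (SE, n = 2 against 2; adjusted p = 0.00322, limma with Benjamini-Hochberg adjustment over all genes). Over all mice, with mouse group as covariate, it was 1.10 ± 0.062 (n = 4 against 4; limma adjusted p = 5.33e-06), a 2.15-fold difference.

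Cyba, whose product p22phox stabilizes gp91phox, measured 7.03 and 7.07 (CT), 7.09 (T1DM) and 7.20 (T2DM) in Ly6Chigh libraries. Its Ly6Clow values were 6.28 and 6.27 (CT), 6.18 (T1DM) and 6.17 (T2DM). The subsets were 0.76 apart at their nearest libraries. The log2FC was 0.78 ± 0.063 in CT mice (limma adjusted p = 0.00981) and 0.88 ± 0.091 over all mice (limma adjusted p = 0.000143), or 1.83-fold.

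Ncf1, the organizer p47phox, measured 7.88 and 7.95 (CT), 7.94 (T1DM) and 8.12 (T2DM) in Ly6Chigh libraries. In Ly6Clow libraries it measured 7.39 and 7.24 (CT), 7.06 (T1DM) and 7.42 (T2DM). The subsets were 0.46 apart at their nearest libraries, although the Ly6Clow libraries spread more widely than those of Cybb. The log2FC of 0.60 ± 0.078 in CT mice missed the limit of 0.01 (limma adjusted p = 0.0217), whereas that of 0.69 ± 0.088 over all mice passed it (limma adjusted p = 0.000432; 1.62-fold).

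Rac1, the widely expressed Rac, measured 9.89 and 9.75 (CT), 9.90 (T1DM) and 10.00 (T2DM) in Ly6Chigh libraries. Its Ly6Clow values were 9.01 and 8.77 (CT), 9.01 (T1DM) and 8.92 (T2DM). The subsets were 0.73 apart at their nearest libraries, more than the 0.24 between the CT Ly6Clow replicates. The log2FC was 0.93 ± 0.108 in CT mice (limma adjusted p = 0.0182) and 0.96 ± 0.083 over all mice (limma adjusted p = 4.99e-05), or 1.94-fold.

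Ncf4, which encodes p40phox, measured 6.59 and 6.70 (CT), 6.36 (T1DM) and 7.41 (T2DM) in Ly6Chigh libraries. In Ly6Clow libraries it measured 6.38 and 6.53 (CT), 6.10 (T1DM) and 6.57 (T2DM). The subsets overlapped, since the T1DM Ly6Chigh library lay below both CT Ly6Clow libraries. The log2FC was 0.19 ± 0.096 in CT mice (limma adjusted p = 0.245) and 0.37 ± 0.131 over all mice (95% confidence interval 0.074 to 0.67; limma adjusted p = 0.0577). Without the T2DM libraries it was 0.21 (limma adjusted p = 0.161), and without the T1DM libraries 0.41 (limma adjusted p = 0.0997).

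Rac2, the Rac of blood cells, measured 8.66 and 8.52 (CT), 8.38 (T1DM) and 9.02 (T2DM) in Ly6Chigh libraries. In Ly6Clow libraries it measured 8.84 and 8.81 (CT), 8.71 (T1DM) and 8.67 (T2DM). The T2DM Ly6Chigh library was the highest of the 8, and the other 3 Ly6Chigh libraries lay below the CT and T1DM Ly6Clow libraries and, with 8.66 at most, just below the 8.67 of the T2DM one. The log2FC was -0.23 ± 0.064 in CT mice (limma adjusted p = 0.0895) and -0.11 ± 0.115 over all mice (95% confidence interval -0.38 to 0.15; limma adjusted p = 0.494). Without the T2DM libraries it was -0.27 (limma adjusted p = 0.0341), still short of the limit, and without the T1DM libraries -0.040 (limma adjusted p = 0.845).

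**Figure D2:**
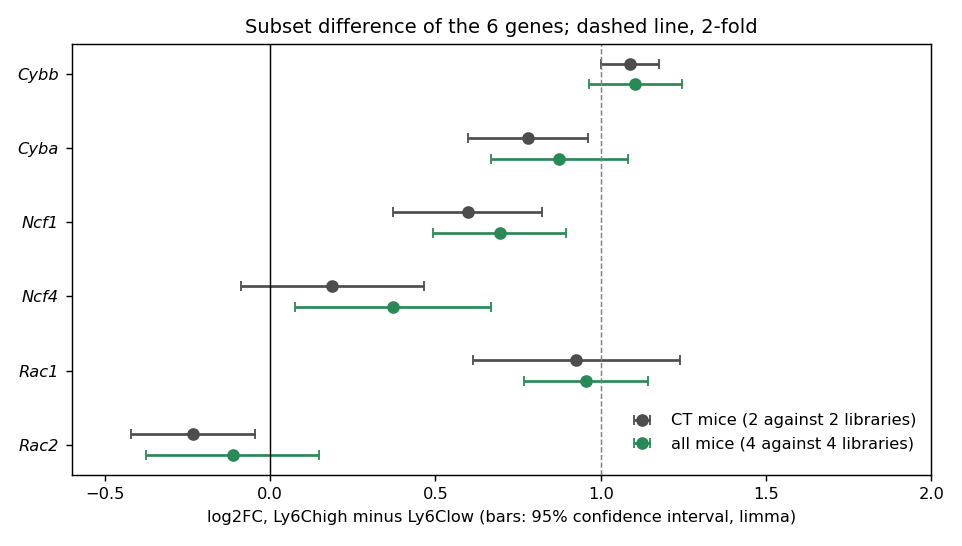
Log2FC of Ly6Chigh minus Ly6Clow for each gene (x axis; bars, 95% confidence interval from limma) in CT mice (grey) and over all mice (green), with the 2-fold limit dashed. Cybb at 1.09 and 1.10 is the gene whose estimates both lie past 2-fold, and the interval of Rac2 over all mice spans 0.

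Calls required an adjusted p under 0.01 together with an absolute log2FC above 1. In CT mice 1 of the 6 genes, Cybb, was called, against 3.52% of all genes, and over all mice it was again Cybb, 1 of 6, against 12.1%. With the limit on p alone, Cybb and Cyba passed in CT mice (4.54% of all genes, and 2.93% in this direction), and Cybb, Cyba, Ncf1 and Rac1 passed over all mice, 4 of 6 (20.3% of all genes, and 11.4% in this direction). The same 4 genes had all 4 Ly6Chigh libraries above all 4 Ly6Clow libraries, as did 16.4% of all genes and 33.4% of those whose mean log2 value was 5 or more, and 0 of 6 had the reverse order (16.3% of all genes). The median log2FC over all mice was 0.78 for the 6 genes, 0.95 for the 4 markers of both kinds of MC and -0.082 for all genes.

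The call of Cybb depended on the scaling. When each library was scaled to the same sum its log2FC over all mice was 0.81 (limma adjusted p = 2.01e-05), and after quantile normalization it was 0.67 (limma adjusted p = 6.29e-05), both past the limit on p and under 2-fold. In CT mice its log2FC stayed at 1.06 to 1.11 when any 1 of the 4 libraries was left out (limma adjusted p of 0.0643 to 0.0847, in fits that called 0 of all genes), and its adjusted p was 0.0283 without the trend of the variance on expression, where 0 genes were called as well. Scaling to the same sum moved the median of all genes by -0.30, and quantile normalization moved it by 0.12. Relative to the median of all genes Cybb differed by 1.19, 1.19 and 0.63 as deposited, scaled and quantile normalized, Rac1 by 1.04, 1.04 and 0.53, and Rac2 by -0.032, -0.032 and -0.46. Scaling shifts all genes of a library alike, so the deposited and scaled differences relative to this median are equal by construction. In CT mice Ncf4 lay 0.27 above the median of all genes as deposited and when scaled, but -0.027 from it after quantile normalization, so no direction is given for it there. The passing of the limit on p in CT mice also changed. With a filter on low genes 4 of the 6 passed, beside 1660 of 12527 genes, where without the filter 2 of the 6 and 749 of 16486 genes passed. Ncf1 and Rac1 were then at limma adjusted p = 0.00788 and 0.00312. Cyba missed the limit after quantile normalization and scaling (limma adjusted p = 0.0156 and 0.0209), fits in which 997 and 763 of 16486 genes passed. Rac2 passed it after quantile normalization, at -0.57 (limma adjusted p = 0.00734). Rac2 came to -0.43 and -0.41 over all mice under quantile normalization and scaling (limma adjusted p = 0.0153 and 0.0138), and Ncf1 missed the limit on p without the trend (limma adjusted p = 0.0109). Leaving out CT Ly6Clow replicate 1 brought Rac1 past 2-fold, at 1.01, and so to a call.

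The pair of Rac genes showed the contrast within a library. Rac1 minus Rac2, a difference of log2 values in which the scaling of a library cancels, was 1.22 in both CT Ly6Chigh libraries, 1.52 in T1DM and 0.98 in T2DM Ly6Chigh MCs. The Ly6Clow libraries gave 0.17 and -0.044 (CT), 0.30 (T1DM) and 0.25 (T2DM). The lowest Ly6Chigh library stood above the highest Ly6Clow library.

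The next question was whether diabetes moved the oxidase genes. When the T1DM and T2DM libraries were joined and tested against CT, 0 of the 6 genes and 0 of 16486 genes were called by limma in Ly6Chigh MCs, in Ly6Clow MCs or for the difference between subsets (0% in each). At an unadjusted p under 0.05 there were 0 of the 6 genes in each test, against 4.48%, 2.97% and 6.58% of all genes. The estimates for the 6 genes ran from 0.033 to 0.24 in Ly6Chigh and from -0.13 to 0.075 in Ly6Clow MCs. Intervals were narrowest for Cybb, -0.23 to 0.29 in Ly6Chigh and -0.26 to 0.26 in Ly6Clow MCs, and widest for Ncf4, -0.51 to 1.00 in Ly6Chigh MCs. The T1DM and T2DM libraries of a subset served as replicates, so a difference between the models counted as spread (SE of 0.324 for Ncf4). These tests were therefore weak for genes on which the models differ. Over all genes the diabetic mean minus the CT mean (4 libraries each) had an SD of 0.27, against 0.74 for T2DM minus T1DM (2 libraries each), and whether the deposited values were adjusted between the sequencing runs is not given in the sources used here. Such an adjustment could remove a difference that the diabetic libraries share and place T1DM and T2DM on opposite sides of CT, so the counts of 0 do not show that diabetes left these genes alone, and the positions against CT given next carry the same limit.

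The models were then taken apart, each as 1 library per subset against 2 CT libraries, with no replicate check and no test. In T2DM Ly6Chigh MCs 6 of 6 genes lay above both CT libraries, a position that 38.4% of all genes had, and 0 lay below both (35.5%). Ncf4 differed most, by 0.77 from the CT mean, followed by Rac2 at 0.43, Ncf1 at 0.20, Rac1 at 0.18 and Cybb and Cyba at 0.15 each. None reached 2-fold, in this library or in the other 3 diabetic libraries, whereas 13.8% of all genes did here, 10.1% in T1DM Ly6Chigh, 8.81% in T1DM Ly6Clow and 10.8% in T2DM Ly6Clow MCs. After quantile normalization 4 of 6 lay above both CT libraries (37.0% of all genes) and 1 below both (36.0%), with Cybb at -0.068 from the CT mean. After scaling to the same sum 6 of 6 lay above both (31.4% of all genes) and 0 below both (42.7%).

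In T1DM Ly6Chigh MCs 2 of 6 genes lay above both CT libraries (36.3% of all genes) and 3 below (33.5%). Those below were Ncf4 at -0.28, Rac2 at -0.21 and Cybb at -0.083, and those above, Rac1 and Cyba, differed by 0.082 and 0.040. In T1DM Ly6Clow MCs 5 of 6 lay below both CT libraries (34.9% of all genes) and 0 above (35.1%), led by Ncf4 at -0.36 and Ncf1 at -0.26. In T2DM Ly6Clow MCs 3 of 6 lay above (34.5%) and 2 below (37%), within -0.15 to 0.11 of the CT mean. T1DM lay below and T2DM above both CT libraries for 3 of 6 genes in Ly6Chigh MCs (Cybb, Ncf4 and Rac2) and for 3 of 6 in Ly6Clow MCs (Cybb, Ncf1 and Ncf4), and 25.9% and 24.2% of all genes had T1DM and T2DM on opposite sides in either order. T2DM Ly6Chigh MCs stood 1.05 above T1DM Ly6Chigh MCs for Ncf4, past 2-fold, as were 19.3% of all genes.

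**Figure D3:**
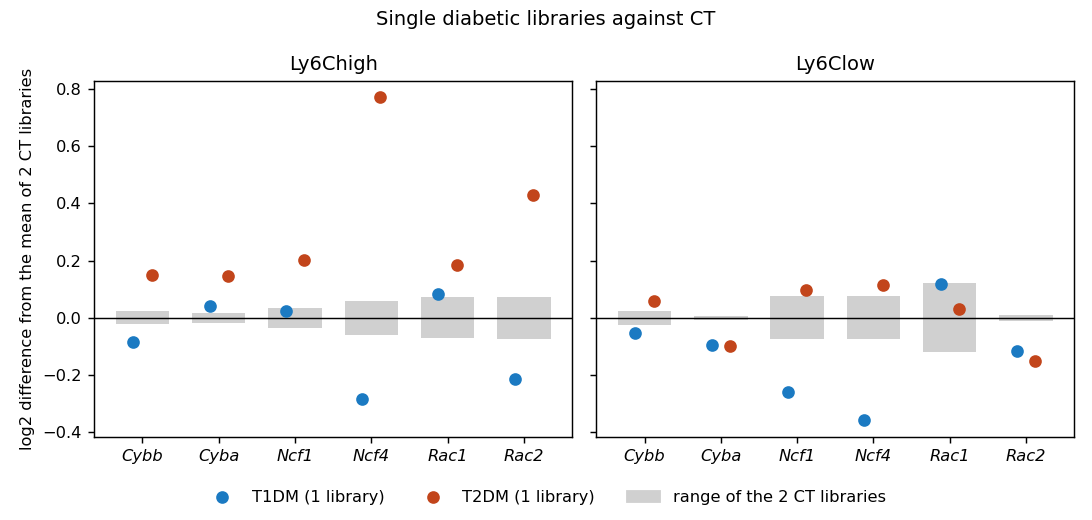
Log2 difference of the T1DM library (blue) and the T2DM library (red) from the mean of the 2 CT libraries, in Ly6Chigh (left) and Ly6Clow MCs (right); grey bars give the range of the CT libraries and no test applies. All 6 T2DM Ly6Chigh points lie above the grey bars, Ncf4 at 0.77 and Rac2 at 0.43 the farthest, whereas the Ly6Clow points lie between -0.36 and 0.12.

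Markers of other cells differed in the T2DM Ly6Chigh library as well. The 7 of 10 neutrophil markers measured summed to a log2 level of 7.59 there, against 4.42 and 4.30 in CT and 5.88 in T1DM Ly6Chigh MCs, a sum carried by S100a8 (6.90 against 1.14 and 1.15 in CT) and S100a9 (5.52 against 0.62 and 1.23). Of the others Retnlg was lower, at -1.55 against 1.98 and 1.46, and Cxcr2 differed by -0.14 from the CT mean. Higher were Mmp9, at 3.41 against 1.11 and 0.48, Ngp, at 3.07 against 1.53 and 1.72, and Ltf, at 0.42 against -2.04 and -0.55. In T2DM Ly6Clow MCs this sum was also high, 6.96 against 4.91 and 4.92 in CT mice, where Ncf4 differed by 0.11 and Rac2 by -0.15. The classical MC markers summed to 13.80 in T2DM Ly6Chigh MCs against 12.63 and 12.62 in CT, and the nonclassical markers to 10.40 against 11.38 in both. The NK cell genes summed to 4.45 against 6.14 and 6.15, the B cell genes to 8.03 against 8.61 and 8.57, and the platelet genes to 7.54 against 8.76 and 8.63. The part of these cells in the values of Ncf4 and Rac2 was not tested.

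Within T1DM mice Ly6Chigh minus Ly6Clow was 1.06 for Cybb, 0.92 for Cyba, 0.89 for Rac1, 0.88 for Ncf1, 0.26 for Ncf4 and -0.33 for Rac2. Within T2DM mice it was 1.18 for Cybb, 1.08 for Rac1, 1.03 for Cyba, 0.85 for Ncf4, 0.70 for Ncf1 and 0.35 for Rac2. Past 2-fold were 1 of 6 genes in T1DM (27.9% of all genes) and 3 of 6 in T2DM mice (29.1%). In CT mice the same differences were 1.09, 0.93, 0.78, 0.19, 0.60 and -0.23 for Cybb, Rac1, Cyba, Ncf4, Ncf1 and Rac2. The difference of Rac2 thus had the opposite sign in T2DM mice, as had 7.71% of all genes, but it was 0.0027 after quantile normalization and -0.015 after scaling to the same sum.

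Since Ncf4 and Rac2 had the same order of the mouse groups in Ly6Chigh MCs and lie 296586 bases apart on chromosome 15, the 7 measured genes between them were listed. In T2DM Ly6Chigh MCs 4 of the 7 lay above both CT libraries (38.4% of all genes), and in T1DM Ly6Chigh MCs 4 lay below both (33.5%), 3 of them in both respects (25.9% were on opposite sides in either order). So few genes are a description only, and 2 of the 7, Tst and C1qtnf6, had means of 0.51 and 0.68, near the low end of the values. Both of these low genes were among the 4 above in T2DM, and C1qtnf6 was also among the 4 below in T1DM and so 1 of the 3. The receptor gene Csf2rb was 1 of the 3, with 9.24 and 9.20 (CT), 8.88 (T1DM) and 9.38 (T2DM) in Ly6Chigh libraries. Il2rb, a lymphocyte receptor gene in the same stretch, was at 4.61 and 5.06 in CT and 3.33 in T2DM Ly6Chigh MCs.

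Across the 8 libraries Cybb, Cyba, Ncf1 and Rac1 followed each other with Pearson's r of 0.94 to 0.99. The r of Ncf4 with these 4 was 0.53 to 0.69, and that of Rac2 was -0.23 to -0.16, while Ncf4 and Rac2 had an r of 0.52. These values describe 8 libraries that share their subset labels, mouse pools and scaling. Among the 5222 other genes whose mean log2 value was 5 or more, those most like Cybb were Stom, Snx1 and Arhgap9 (r = 0.998 each), and those most like Cyba were Hexa, Mrfap1 and Lamp1 (r = 0.998 to 0.999). Flot2, Gnb2 and Myd88 were nearest to Ncf1 (r = 0.991 to 0.992) and Gyg, Abcd2 and Hsd17b4 to Rac1 (r = 0.991 to 0.996). Mlec, Psmd1 and Socs3 were nearest to Ncf4 (r = 0.961 to 0.977) and Ago1, Aars and Gcnt2 to Rac2 (r = 0.916 to 0.948).

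The genes that regulate the oxidase were taken as lists, and a few other oxidase genes were looked up. Cybc1, a chaperone of the membrane pair, had a log2FC over all mice of -0.17 ± 0.124 (limma adjusted p = 0.322). Nox1, Nox4 and Noxo1, which belong to the oxidases of other tissues, did not pass the test.

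Of 15 regulators of Rac 3 were called higher in Ly6Chigh MCs and 0 lower, where 12.1% of all genes were called in either direction, with a median log2FC of 0.39. They were the exchange factors Dock1 (1.84 ± 0.133) and Tiam1 (1.77 ± 0.151), and Bcr (1.38 ± 0.218), whose product also has a Rac GTPase-activating domain. With the limit on p alone 7 of 15 passed, all higher (11.4% of all genes), including Arhgdib, which holds Rac in the cytosol. Of 14 oxidase activators 0 were called higher and 3 lower, against 12.1% of all genes: the protein kinase C genes Prkca (-2.49 ± 0.244) and Prkcz (-1.39 ± 0.319), and Hvcn1 (-2.37 ± 0.143), the proton channel that offsets the charge the oxidase moves. With the limit on p alone 5 were higher, such as the kinase genes Prkcd and Irak4, and 4 lower (20.3% of all genes in either direction), and the median was 0.061. Prkca and Hvcn1 were low in Ly6Chigh libraries (3.09 to 4.16 and 3.40 to 3.84) and higher in Ly6Clow libraries (5.58 to 6.59 and 5.75 to 6.26), beside the B cell genes given above, and the part of those cells was not tested. Prkcz was low in both subsets, at 1.21 to 2.47 in Ly6Chigh and 3.16 to 3.53 in Ly6Clow libraries. It passed the limit narrowly over all mice (limma adjusted p = 0.0096) and missed it in CT mice (limma adjusted p = 0.0992).

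Of 11 enzymes that make or remove superoxide and peroxide 10 were measured, 3 were called higher and 0 lower (12.1% of all genes in either direction), with a median of 0.94. These were the peroxiredoxins Prdx5 (2.38 ± 0.102), Prdx6 (1.25 ± 0.158) and Prdx1 (1.11 ± 0.111). The superoxide dismutase Sod1 and the glutathione peroxidase Gpx1 were among the 6 past the limit on p, at 0.96 and 0.77, in a direction in which 11.4% of all genes passed it. These lists are described beside those shares and were not tested as sets.

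**Figure D4:**
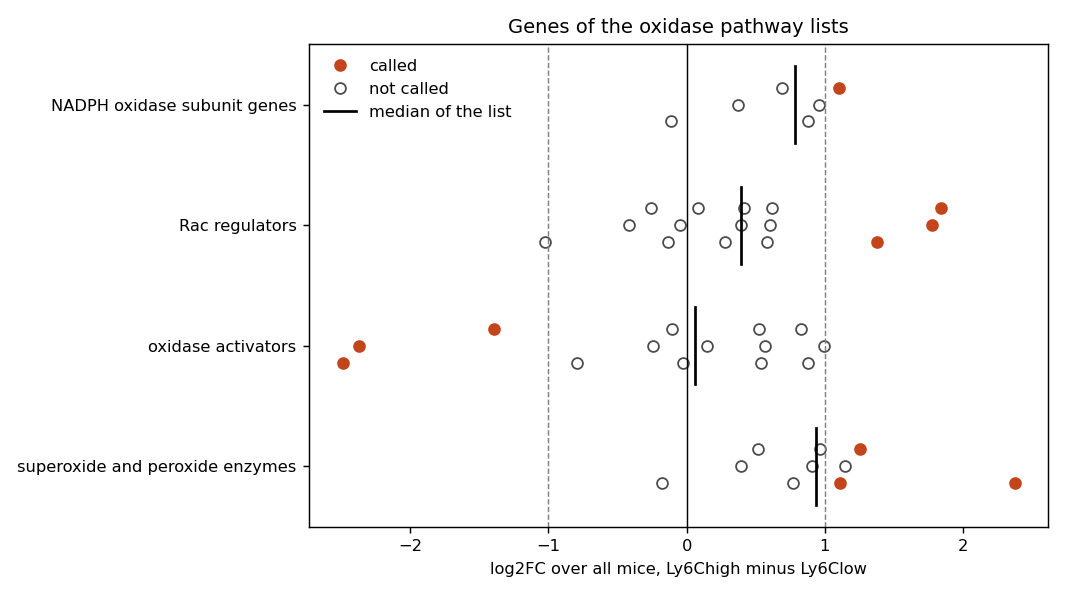
Log2FC of Ly6Chigh minus Ly6Clow over all mice for each measured gene of 4 lists (rows); filled points were called, black bars are list medians and dashed lines mark 2-fold. The 6 subunit genes have a median of 0.78 and the superoxide and peroxide enzymes one of 0.94, against -0.082 for all genes.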

How the data were processed

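RNA of 5 mice per group was pooled and sequenced, per the labels. The authors quantified transcripts with Kallisto 0.45, summarized them to genes with tximport (version 1.12.3, R version 3.6.1) and deposited log2 expression values for 16486 genes. The build named by the labels is mm10. How libraries were scaled, how low genes were filtered and whether sequencers were adjusted for are not given in the sources used here. The deposited log2 values hold no counts, so precision could be judged only from the CT duplicates, which correlated at 0.968 across genes in both subsets. The median absolute difference between duplicates over all genes was 0.26 in Ly6Chigh and 0.25 in Ly6Clow libraries.

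Columns were matched to samples by name. log2FC were computed from the deposited values without further normalization, and tested with limma 3.58.1 (lmFit, eBayes with trend) in R 4.3.3 on all genes, with Benjamini-Hochberg adjustment over 16486 genes. The study's limits, an adjusted p under 0.01 and an absolute log2FC above 1, defined a call. The CT comparison used 4 libraries and the others 8. The paper describes pooling the RNA of a group and sequencing it in duplicate. By that wording the CT libraries of a subset are repeats of the same pool. p-values measure the spread between these libraries, which may be technical, and not the spread between mice. Comparisons with 1 library on a side have no test. The limma script was tested on simulated data.

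The members and lists were chosen with earlier results of these data known, and the subset difference of these genes is no independent support of earlier results. Named genes are the 6 members, up to 4 called genes per list with the largest absolute log2FC over all mice, and the 3 genes most like each member by Pearson's r; Cybc1, Nox1, Nox4, Noxo1, Arhgdib, Prkcd, Irak4, Sod1, Gpx1, Csf2rb and Il2rb were named after their values were seen, as were markers. A few results under this rule were left out of the text. Alternatives were a low-value filter (mean log2 of at least 1, 12527 genes), log2 of the value plus 1, quantile normalization, libraries scaled to the same sum of linear values, eBayes without trend, an adjusted p limit of 0.05, a replicate block, and leaving out libraries; no fold limit, and leaving out 1 diabetic model from the tests of diabetes, were added after seeing the data. Promoters came from RefSeq (GRCm38.p6), and positions and transcripts from GENCODE M21. Tables were handled in pandas 2.3.3 under Python 3.11.15 and plots drawn in matplotlib 3.10.9.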

Additional observations from a re-analysis of the deposited data

Results flagged for a closer look

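T1DM and T2DM libraries lay on opposite sides of both CT libraries for some of the 6 genes, and these differences were not tested, since each model has 1 library per subset. In Ly6Chigh MCs this held for Ncf4 (0.77 in T2DM and -0.28 in T1DM, log2 difference from the CT mean), Rac2 (0.43 and -0.21) and Cybb (0.15 and -0.083), with T2DM above and T1DM below. Either order occurred in 25.9% of all genes, and an adjustment of the values between sequencers, which the sources used here neither state nor deny, could give such positions and was not tested. In Ly6Clow MCs it held for Ncf4 (0.11 and -0.36), Ncf1 (0.097 and -0.26) and Cybb (0.058 and -0.053), against 24.2% of all genes. After quantile normalization the T2DM difference of Cybb in Ly6Chigh MCs was -0.068.

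The difference of Ly6Chigh minus Ly6Clow for Rac2 was 0.35 in T2DM mice, but -0.33 in T1DM mice and -0.23 in CT mice. This difference between models was not tested, and the T2DM value came to 0.0027 after quantile normalization and -0.015 when libraries were scaled to the same sum.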

How the results depend on the processing

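In CT mice 581 genes were called, 1089 with the low-value filter, 1936 at an adjusted p limit of 0.05, and 0 without the trend, with the replicate block and in every fit that left out 1 library (0 to 0). Cybb was the 1 member called, and 0 members were called in the fits with 0 genes and under quantile normalization and scaling to the same sum, where the log2FC was 0.70 and 0.80. Without a fold limit 2 members passed (749 genes). Over all mice 1 member was called of 2001 genes, 0 under quantile normalization and scaling to the same sum, 1 to 2 when 1 CT library was left out (Rac1 joined at 1.01 without CT Ly6Clow replicate 1), and 4 without a fold limit (3351 genes). Scaling to the same sum moved the split of called genes from 44.3% to 22.1% higher over all mice and from 59.6% to 36.5% in CT mice. Across genes, replicate 1 minus replicate 2 in CT Ly6Chigh and in CT Ly6Clow libraries correlated at r = 0.009. With 1 such difference per subset this cannot show whether replicate numbers pair the CT samples. The replicate block left 1823 genes called over all mice and the call of Cybb there. At an adjusted p limit of 0.05, 3 genes were called for the subset difference between diabetic and CT mice. The member past 2-fold within T1DM and the 3 within T2DM mice fell to 0 under both scalings.

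Signs that reversed belonged to estimates that passed no test. In CT mice Ncf4 went to -0.0076 (quantile normalization) and -0.097 (scaling to the same sum). For diabetic against CT in Ly6Chigh MCs, Cybb went to -0.11 and -0.037 under these scalings, and without T2DM libraries Cybb, Ncf4 and Rac2 went to -0.083, -0.28 and -0.21. In Ly6Clow MCs, Cybb went to -0.047 and -0.039 under the scalings, Rac1 to -0.00041 under quantile normalization, Cybb to -0.053 without T2DM libraries, and Ncf1 and Ncf4 to 0.097 and 0.11 without T1DM libraries. Leaving out 1 CT Ly6Clow library gave -0.023 to 0.028 for Cybb and -0.046 to 0.20 for Rac1. For the difference between subsets, Cybb went to -0.061 under quantile normalization, Rac1 ran from -0.062 to 0.18 when 1 CT library was left out, and Cybb, Rac1 and Rac2 went to -0.031, -0.036 and -0.099 without T2DM libraries. The cause was not tested. A test of T2DM against T1DM mice across the subsets was not run, and with no counts differences within the spread of the CT libraries were not detectable.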
